A study of Mus musculus with 6 samples.

Results

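The 10 integrin subunit genes Itgax, Itgam, Itgal, Itga4, Itga5, Itgav, Itgb1, Itgb2, Itgb3 and Itgb5 were chosen by symbol, and all 10 were found among the 55401 genes of each count table. Their RNA was measured in 3 libraries of RAW264.7 cells given Nop16 siRNA and 3 libraries labelled control siRNA. RAW264.7 is a mouse macrophage line from the ascites of a tumour that Abelson murine leukemia virus had induced, labelled WT in genotype. A single treatment text describes Nop16 siRNA at 20 nM for 3 days, while the treatment tag reads "no" for every sample and only the sample titles separate the groups. Whether and how the control cells were transfected, and the siRNA sequences, are not stated in the labels. Separate cultures are not mentioned for the replicates, and the spread behind each p-value may thus be technical. RAW264.7 is 1 transformed line, so these levels are those of a tumour-derived macrophage. NOP16 is a nucleolar protein that takes part in large ribosomal subunit assembly.

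Integrins are receptors for matrix and for other cells, each made of 1 α and 1 β subunit that leave the endoplasmic reticulum as a pair. Leukocytes are marked by the β2 family, in which Itgb2 pairs with Itgal to form LFA-1, with Itgam to form Mac-1 or complement receptor 3, with Itgax to form p150,95 or complement receptor 4, and with Itgad. The β1 subunit pairs with Itga4 and Itga5, which bind VCAM-1 and fibronectin, and αv pairs with several β subunits to bind vitronectin, osteopontin and other RGD-containing proteins. In macrophages these receptors carry adhesion, the uptake of complement-coated particles and migration.

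Poly(A)-selected RNA was read as fragment counts per gene, with totals of 15601477 to 18635089 in the Nop16 siRNA libraries and 19778237 to 23061922 in the control siRNA libraries, so every control library was deeper. Nop16 itself had 61, 72 and 84 counts under Nop16 siRNA and 388, 437 and 402 counts under control siRNA, and edgeR's quasi-likelihood test gave a fold of 0.224 (95% interval 0.19 to 0.265, adjusted p = 2.94e-23). Of the macrophage markers, Csf1r, Cd68, Lyz2, Spi1 and Ptprc were abundant in both groups. Csf1r, the receptor for the macrophage growth factor M-CSF, averaged 1823 ± 43 CPM (counts relative to library size, TMM-scaled) under Nop16 siRNA and 1431 ± 16.3 CPM under control siRNA (SD, n = 3 each). Adgre1, which encodes F4/80, was low at 7.86 ± 0.762 CPM under Nop16 siRNA and 7.81 ± 0.507 CPM under control siRNA. Mrc1 averaged 1.51 CPM under Nop16 siRNA and 1.21 CPM under control siRNA. Marco averaged 0.453 CPM under Nop16 siRNA and 0.455 CPM under control siRNA and was not tested. The 10 macrophage markers summed to 6461 to 6841 CPM under Nop16 siRNA and 4190 to 4490 CPM under control siRNA, with 4 of 9 tested called higher and 2 lower by edgeR (23.0% and 22.4% of all 14269 genes tested were called higher and lower). Lyz2, lysozyme, made up most of the difference between these sums, with 2934 ± 185 CPM under Nop16 siRNA and 1144 ± 153 CPM under control siRNA, while Ptprc and Fcgr1 were called lower. Markers of lymphocytes, neutrophils, dendritic cells, fibroblasts and epithelia were low, and those of osteoclasts and megakaryocytes, some of them abundant, are given further on. The 7 T and NK cell markers summed to 4.07 to 4.95 CPM under Nop16 siRNA and 4.56 to 5.93 CPM under control siRNA, with 4 of 7 at 0 in every library and 1 tested but not called. The 5 B cell markers summed to at most 0.326 CPM under Nop16 siRNA and 0.151 CPM under control siRNA, and none was tested. The 6 neutrophil markers summed to 14.5 to 16.8 CPM under Nop16 siRNA and 11.7 to 16.3 CPM under control siRNA, with 2 tested and neither called. Dendritic cells are known for high Itgax, and their 7 markers summed to 5.56 to 5.99 CPM under Nop16 siRNA and 7.16 to 7.96 CPM under control siRNA, with 1 of 2 tested called lower (Batf3) and Cd209a and Ccr7 at 0. Fibroblast markers summed to at most 1.42 CPM under Nop16 siRNA and 1.59 CPM under control siRNA, and epithelial markers to at most 0.0543 CPM under Nop16 siRNA and 0.0502 CPM under control siRNA.

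Under Nop16 siRNA the β2 integrin genes Itgax, Itgam and Itgb2 rose, Itgax by 3.88-fold, while their relative Itgal fell slightly and the αv partner Itgb5 fell to 0.657 of its control level. Itga5, Itgav and Itgb1 did not pass the test. Of the 9 members that could be tested, 4 were called higher and 2 lower at an adjusted p under 0.05 from edgeR, beside 23.0% and 22.4% of the 14269 genes tested. The groups of libraries did not overlap for 6 of the 9 members, beside 52.5% of all genes tested. The median log2 fold change of the 9 members was 0.03, and that of all genes tested was -0.0002. When edgeR tested against a minimum fold of 1.2, 4 of the 9 members passed, Itgax, Itgam and Itgb2 higher and Itgb5 lower, beside 16.5% of all genes. In bulk RNA, more or fewer cells of a kind and more or less RNA per cell cannot be told apart.

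**Figure D1:**
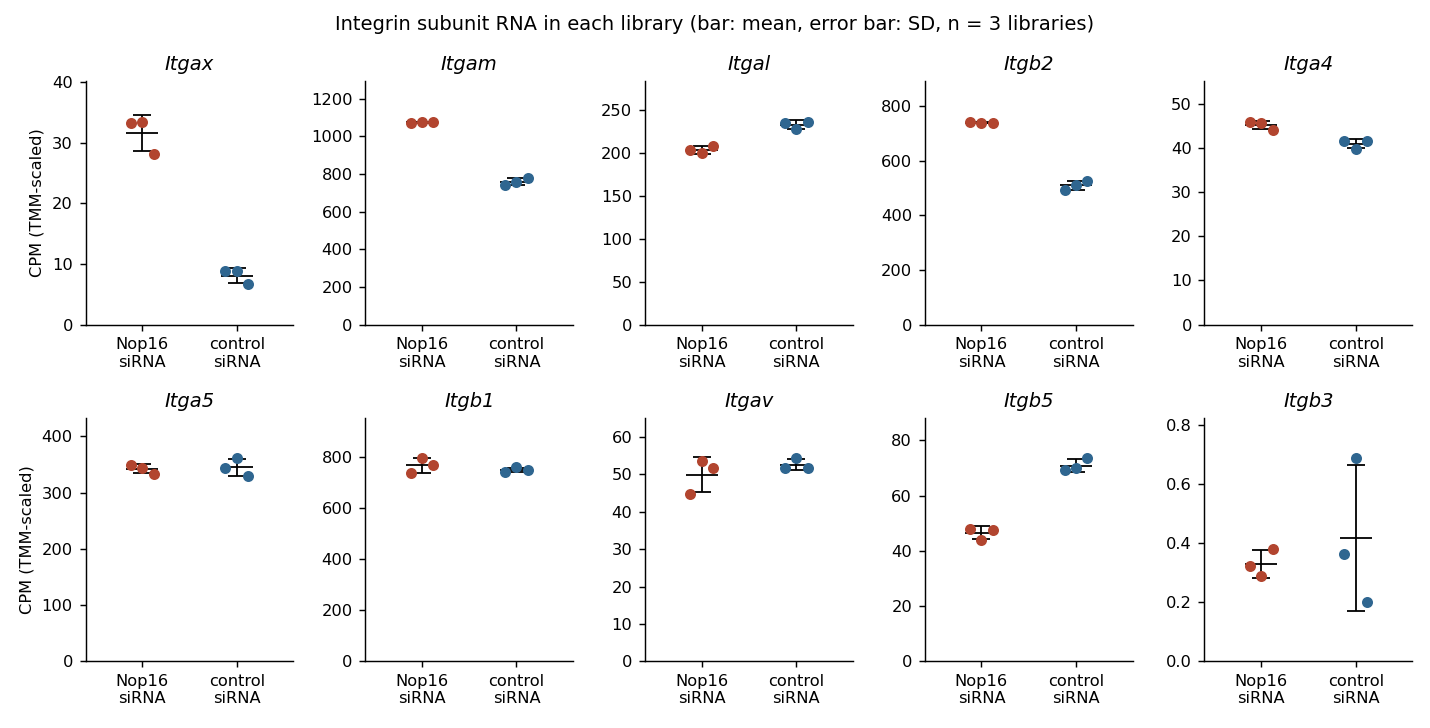
CPM of each integrin subunit (vertical axis, from 0, its own scale per gene) in the 3 Nop16 siRNA libraries (left, red) and the 3 control siRNA libraries (right, blue), with mean and SD. Itgax, Itgam and Itgb2 lie higher in all 3 Nop16 siRNA libraries, Itgal and Itgb5 lie lower, Itga4 is slightly higher, and the points of Itga5, Itgb1, Itgav and Itgb3 overlap.

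The start-site regions of Itgax, Itgam and Itgb5 are shown because these genes made up the largest rise, a rise of a highly expressed neighbour and the largest fall among the members. The sequences are RefSeq promoter windows of GRCm38.p6, running from 250 bases before to 50 bases after the RefSeq start, 5′ to 3′ on the plus strand. They lie at chr7:128129300-128129599 for Itgax, chr7:128062390-128062689 for Itgam and chr16:33829415-33829714 for Itgb5. Capitals mark matches, on either strand, to the letters of 5 motifs that were searched. These were the PU.1-type purine box GAGGAA, the AP-1-type TGANTCA, the Sp1-type GC box GGGCGG, the E-box CACGTG and the RUNX-type TGTGGT.
Itgax: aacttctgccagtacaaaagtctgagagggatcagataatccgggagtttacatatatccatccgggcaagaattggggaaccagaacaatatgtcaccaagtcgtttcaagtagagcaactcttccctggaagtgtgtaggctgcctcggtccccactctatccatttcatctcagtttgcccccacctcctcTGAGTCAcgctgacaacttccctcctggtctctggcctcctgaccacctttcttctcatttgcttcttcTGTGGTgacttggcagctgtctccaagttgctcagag
Itgam: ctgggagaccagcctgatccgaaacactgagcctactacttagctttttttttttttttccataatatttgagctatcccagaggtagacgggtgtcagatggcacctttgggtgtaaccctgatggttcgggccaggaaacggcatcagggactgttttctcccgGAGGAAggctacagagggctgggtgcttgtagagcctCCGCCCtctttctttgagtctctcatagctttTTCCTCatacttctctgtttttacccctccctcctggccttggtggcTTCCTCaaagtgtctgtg
Itgb5: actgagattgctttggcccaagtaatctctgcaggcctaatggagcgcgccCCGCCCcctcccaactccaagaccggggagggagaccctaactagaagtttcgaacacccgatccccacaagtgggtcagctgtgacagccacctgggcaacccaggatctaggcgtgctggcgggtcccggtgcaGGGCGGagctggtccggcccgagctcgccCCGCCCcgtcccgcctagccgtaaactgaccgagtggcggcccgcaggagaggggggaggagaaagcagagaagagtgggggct
The Itgax window held 1 match to TGANTCA, 56 bases before the start, and 1 to TGTGGT after it. The Itgam window held 3 matches to GAGGAA and 1 to GGGCGG, and the Itgb5 window held 3 matches to GGGCGG. None of the printed matches overlapped another. Among 32851 RefSeq promoters of this length, 28.3% held GAGGAA, 7.81% TGANTCA, 35.7% GGGCGG, 7.15% CACGTG and 16.8% TGTGGT. The GC content of the windows was 50% for Itgax, 50.3% for Itgam and 65.7% for Itgb5, against a median of 52.7% over all promoters. A window was found for 7 of the 10 members; Itgal, Itgb2 and Itgb3 had none. A match describes letters only and is no evidence of a bound site.

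Itgax encodes αX, or CD11c, the α subunit of complement receptor 4 and a surface marker used for dendritic cells and for some tissue macrophages. The gene (ENSMUSG00000030789) spans chr7:128129547-128150657 on the plus strand of GRCm38. Nop16 siRNA libraries had 514, 581 and 519 Itgax counts, against 193, 204 and 134 counts in control siRNA libraries. In CPM these were 33.2, 33.5 and 28.2 under Nop16 siRNA and 8.8, 8.78 and 6.73 under control siRNA. Every Nop16 siRNA library was above every control library, and replicate 3 was the lowest of its group in both. The log2 fold change was 1.96 with an SE of 0.0967, a fold of 3.88 (95% interval 3.39 to 4.44, adjusted p = 4.17e-25, edgeR). Ranked by log2 fold change, Itgax stood 38th from the top of 14269 genes.

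Itgam encodes αM, or CD11b, the α subunit of complement receptor 3, which binds iC3b, fibrinogen and ICAM-1. It spans chr7:128062640-128118491 on the plus strand. Its 3 Nop16 siRNA libraries had 16604, 18661 and 19854 counts, or 1073, 1074 and 1078 CPM, and its 3 control libraries had 16311, 17603 and 15501 counts, or 744, 757 and 779 CPM. The groups did not overlap, and the 3 Nop16 siRNA libraries were nearly equal. The log2 fold change was 0.50 with an SE of 0.0274, a fold of 1.41 (95% interval 1.36 to 1.47, adjusted p = 1.23e-23, edgeR). The annotation places Gm49368 over the same strand, sharing 68.7% of the exonic bases of Itgam, and fragments that overlap several genes were counted for each of them. Gm49368 had 837 ± 2.74 CPM under Nop16 siRNA and 599 ± 13.9 CPM under control siRNA (SD, n = 3 each), a log2 fold change of 0.48 (adjusted p = 1.38e-22, edgeR). The Itgam count exceeded that of Gm49368 by 3606, 4115 and 4489 in Nop16 siRNA libraries and by 3415, 3782 and 3268 in control libraries. These totals do not give the number of shared fragments, as each gene model also has exonic bases of its own. Fragments that are shared cannot be assigned to 1 of the 2 gene models.

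Itgb2 encodes β2, or CD18, the common partner of the leukocyte α subunits, without which they do not reach the cell surface. It spans chr10:77530252-77565708 on the plus strand. It had 11486, 12815 and 13555 counts in Nop16 siRNA libraries, or 742, 738 and 736 CPM, against 10808, 11875 and 10435 counts in control libraries, or 493, 511 and 524 CPM. All Nop16 siRNA libraries were above all control libraries. The log2 fold change was 0.54 with an SE of 0.0286, a fold of 1.45 (95% interval 1.39 to 1.51, adjusted p = 3.63e-24, edgeR), so the intervals of Itgb2 and Itgam overlapped.

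Itgal encodes αL, or CD11a, the α subunit of LFA-1, which binds ICAM family members. It spans chr7:127296260-127335138 on the plus strand. It had 3145, 3463 and 3838 counts in Nop16 siRNA libraries, or 203, 199 and 208 CPM, against 5159, 5281 and 4700 counts in control libraries, or 235, 227 and 236 CPM. The Nop16 siRNA libraries were all lower, with a gap wider than the range within either group. The log2 fold change was -0.19 with an SE of 0.0332, a fold of 0.875 (95% interval 0.836 to 0.916, adjusted p = 1.86e-06, edgeR). Against a minimum fold of 1.2, the adjusted p was 1, so a fall of that size was not shown. The fourth partner, Itgad, which encodes αD, had 0, 1 and 1 counts under Nop16 siRNA and 2, 0 and 0 counts under control siRNA and was not tested. The 3 counts taken as the floor correspond to 0.161 to 0.192 CPM in Nop16 siRNA libraries and 0.13 to 0.152 CPM in control libraries, for counting error only.

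Within a library, the make-up of the β2 partners needs no scaling between libraries, so each α subunit was expressed per kb of exon as a share of the sum of Itgam, Itgal, Itgax and Itgad. Itgam made up 84.9%, 85.1% and 85.1% of that sum in Nop16 siRNA libraries and 79.7%, 80.5% and 80.6% in control libraries. Itgal made up 12.3%, 12.1% and 12.6% in Nop16 siRNA libraries and 19.3%, 18.5% and 18.7% in control libraries. Itgax made up 2.75%, 2.77% and 2.33% in Nop16 siRNA libraries and 0.987%, 0.976% and 0.729% in control libraries. None of these 3 shares overlapped between the groups, and the differences in mean share, Nop16 siRNA minus control siRNA, were -6.49 points for Itgal, 4.78 points for Itgam and 1.72 points for Itgax. Each gave an exact two-sided permutation p of 0.1, the smallest that 3 against 3 libraries allow, so no share could reach 0.05. Since Itgam shares fragments with Gm49368 and makes up most of the sum, all of these shares are uncertain, as is the ratio to Itgb2 that follows. The summed α RNA per kb was 1.03, 1.04 and 1.05 times that of Itgb2 under Nop16 siRNA and 1.15, 1.12 and 1.12 times under control siRNA.

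**Figure D2:**
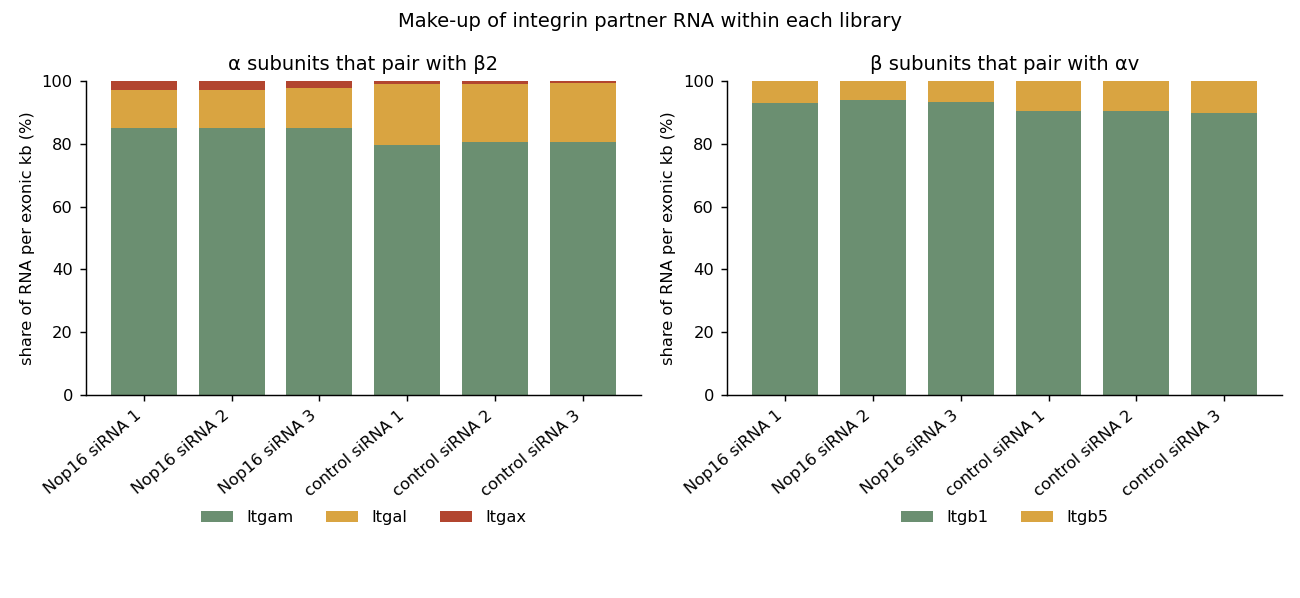
Stacked shares (vertical axis, percent of RNA per exonic kb, from 0 to 100) of Itgam, Itgal and Itgax among α subunits that pair with β2 (left) and of Itgb1 and Itgb5 among β subunits that pair with αv (right), in each of the 6 libraries. The Itgal block averages 12.3% in Nop16 siRNA and 18.8% in control siRNA libraries, and the Itgb5 block 6.52% in Nop16 siRNA and 9.79% in control siRNA libraries. Itgad and Itgb3, under 0.1% each, are not drawn.

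Itga5 encodes α5, the main fibronectin receptor subunit with β1. It spans chr15:103344286-103366763 on the minus strand and had 350, 343 and 334 CPM under Nop16 siRNA, against 344, 361 and 330 CPM under control siRNA. The groups overlapped, the log2 fold change was -0.01 (95% interval -0.08 to 0.05) and the adjusted p was 0.794 in edgeR. The interval spans folds of 0.949 to 1.04.

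Itgb1 encodes β1, the partner of the largest number of α subunits. It spans chr8:128685654-128733200 on the plus strand and had 736, 794 and 769 CPM under Nop16 siRNA, against 742, 759 and 747 CPM under control siRNA. The control values fell inside the range of the Nop16 siRNA values. The fold was 1.02 (95% interval 0.983 to 1.06, adjusted p = 0.372, edgeR).

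Itga4 encodes α4, which pairs with β1 to bind VCAM-1 and fibronectin. It spans chr2:79255426-79333123 on the plus strand, with 8.04% of its exonic bases under the opposite-strand gene Cerkl. It had 45.9, 45.5 and 44 CPM in Nop16 siRNA libraries, against 41.5, 39.7 and 41.6 CPM in control libraries. The groups did not overlap, but the gap was small. The log2 fold change was 0.14 (95% interval 0.02 to 0.26), a fold of 1.1 with an adjusted p of 0.0468 in edgeR. This call was lost in 13 of 18 alternative fits, with adjusted p-values from 0.0614 to 1 there, among them leaving out any 1 library (0.0614 to 0.165), scaling by library size only (0.1) and DESeq2 (0.0867).

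Itgav encodes αv, which pairs with β1, β3, β5, β6 and β8. It spans chr2:83724397-83806916 on the plus strand and had 44.8, 53.5 and 51.6 CPM under Nop16 siRNA, against 51.7, 54.3 and 51.8 CPM under control siRNA. Nop16 siRNA replicate 1 was the lowest of the 6, and the groups overlapped. The fold was 0.952 (95% interval 0.879 to 1.03, adjusted p = 0.34, edgeR).

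Itgb5 encodes β5, whose αvβ5 pair binds vitronectin and takes part in the uptake of apoptotic cells. It spans chr16:33829665-33949338 on the plus strand. It had 743, 761 and 879 counts in Nop16 siRNA libraries, or 48, 43.8 and 47.7 CPM, against 1517, 1624 and 1463 counts in control libraries, or 69.2, 69.9 and 73.5 CPM. Every Nop16 siRNA library was below every control library. The log2 fold change was -0.61 with an SE of 0.0532, a fold of 0.657 (95% interval 0.61 to 0.707, adjusted p = 5.16e-15, edgeR).

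Itgb3 encodes β3, the αv partner that osteoclasts carry and, with αIIb, platelets. It spans chr11:104608000-104670476 on the plus strand. It had 5, 5 and 7 counts under Nop16 siRNA, or 0.323, 0.288 and 0.38 CPM, and 8, 16 and 4 counts under control siRNA, or 0.365, 0.688 and 0.201 CPM. The groups overlapped, and the highest and the lowest values were both controls. It did not pass the filter on low counts and so was not tested; with no filter, edgeR gave a log2 fold change of -0.36 with an SE of 0.619 and an adjusted p of 0.733. The groups were not separated by this test, and with so few counts only a large difference in Itgb3 could have been seen.

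Per kb of exon, Itgb1, Itgb3 and Itgb5 together with Itgb6 and Itgb8, at 0 counts in all 6 libraries, were set against each other as partners of αv. Itgb5 made up 6.96%, 5.96% and 6.65% of their sum in Nop16 siRNA libraries, against 9.67%, 9.55% and 10.2% in control libraries. Itgb1 made up 93%, 94% and 93.3% in Nop16 siRNA libraries and 90.3%, 90.4% and 89.8% in control libraries. Because β1 also pairs with other α subunits, these shares do not measure pairing with αv. Itgb1 and Itgb5 made up nearly all of the sum, so a lower share of 1 is a higher share of the other. Neither share overlapped between groups, each with an exact two-sided permutation p of 0.1, the smallest possible. Itgb3 had a mean share of 0.0279% under Nop16 siRNA and 0.0347% under control siRNA, with an exact p of 0.8. In all, 9 shares were computed over both partner sets, and none can pass 0.05 before or after adjustment.

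Levels were compared between genes as TPM, which corrects for exonic length. The Nop16 siRNA libraries had Itgb2 highest at 506 ± 4.74 TPM, followed by Itgam at 447 ± 3.34 and Itgb1 at 392 ± 17.2 TPM. In control libraries Itgb1 came first at 372 ± 6.86 TPM, then Itgb2 at 338 ± 12.1 and Itgam at 307 ± 8.39 TPM (SD, n = 3 each). Below these in both groups came Itga5, at 145 ± 3.98 TPM under Nop16 siRNA and 142 ± 6.77 TPM under control siRNA. Itgal followed at 64.8 ± 0.954 TPM under Nop16 siRNA and 71.8 ± 1.23 TPM under control siRNA, and Itgb5 at 27.3 ± 1.17 TPM under Nop16 siRNA and 40.4 ± 1.43 TPM under control siRNA. The order of the lowest 4 differed between groups. Itgax stood seventh at 13.8 ± 1.38 TPM under Nop16 siRNA, above Itgav and Itga4, and ninth at 3.42 ± 0.498 TPM under control siRNA, below them. Itgav had 9.72 ± 0.929 TPM under Nop16 siRNA and 9.92 ± 0.336 TPM under control siRNA, and Itga4 had 6.75 ± 0.183 TPM under Nop16 siRNA and 5.94 ± 0.125 TPM under control siRNA. The ranges of neighbouring genes in these orders did not overlap in either group, as far as Itgb3, which was lowest in both. The 10 genes together summed to 3277 to 3325 CPM under Nop16 siRNA and 2728 to 2791 CPM under control siRNA.

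Itgam, Itgax and Itgad lie side by side on chromosome 7, with 11.1 kb between Itgam and Itgax, 3.72 kb between Itgax and Itgad, and 728 kb between Itgal and Itgam. Among the genes within 100 kb of Itgam or Itgax, Pycard, the inflammasome adaptor ASC, was called lower at a log2 fold change of -0.18 (adjusted p = 0.0249, edgeR). Cox6a2, a muscle-type subunit of cytochrome c oxidase that lies inside Itgad on the opposite strand, had 0.75 ± 0.154 CPM under Nop16 siRNA and 8.73 ± 0.858 CPM under control siRNA (SD, n = 3 each). Its fold was 0.0857 (adjusted p = 1.59e-21, edgeR), and it was singled out after its values were seen. A further 6 tested neighbours were not called.

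**Figure D3:**
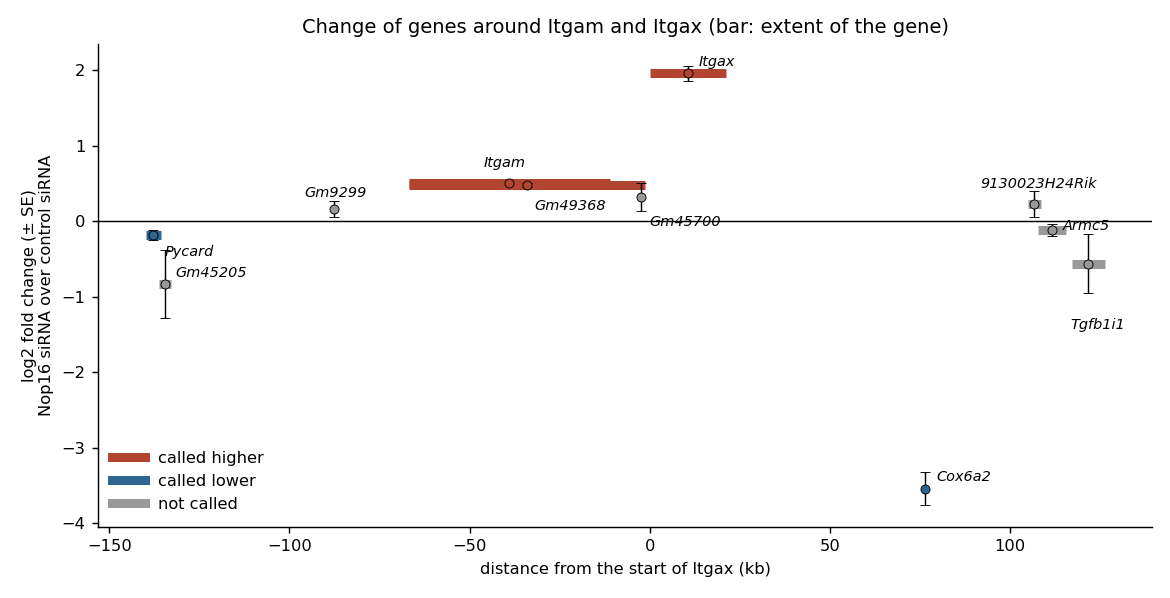
Log2 fold change with SE (vertical axis, Nop16 siRNA over control siRNA) of genes around Itgam and Itgax against distance in kb from the start of Itgax, with bars for the extent of each gene and colours for the call. Itgax lies at 1.96, Itgam at 0.50, Gm49368 at 0.48, and Cox6a2 at -3.54.

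By profile over the 6 libraries (log2 CPM minus the control mean), the 5 genes nearest to Itgax among 10790 candidates were Il1rn at a root mean square distance of 0.108, Mmp13 at 0.135, Mmp12 at 0.175, Pcdh7 at 0.232 and Zranb3 at 0.247. Il1rn, which encodes the interleukin-1 receptor antagonist, had 48.4 ± 1.09 CPM under Nop16 siRNA and 11.9 ± 1.19 CPM under control siRNA. Mmp12, macrophage elastase, had 4984 ± 257 CPM under Nop16 siRNA and 1433 ± 63 CPM under control siRNA (SD, n = 3 each). These genes were picked for this likeness, so their values are a description.

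Of 16 other integrin genes, 7 passed the low-count filter, of which 2 were called higher and 1 lower by edgeR. The median log2 fold change of the 7 was 0.27, and both counts are near what the 23.0% higher and 22.4% lower over all genes would give for 7 genes. Itga9, which encodes the tenascin and osteopontin receptor subunit α9, had 85.5, 94.1 and 85.4 CPM under Nop16 siRNA, against 50.1, 62 and 59.5 CPM under control siRNA, a fold of 1.55 (adjusted p = 8.56e-09, edgeR). Itga8, an RGD-binding subunit, had 21, 31 and 39 counts under Nop16 siRNA, against 13, 10 and 17 counts under control siRNA. Its fold was 2.84 (adjusted p = 0.000318, edgeR). These groups did not overlap for either gene. Itga6, a laminin receptor subunit, had 38.6, 43.5 and 38.8 CPM under Nop16 siRNA, against 56.5, 60.9 and 59.3 CPM under control siRNA, a fold of 0.685 (adjusted p = 4.36e-12, edgeR). Not called were Itga10 at a log2 fold change of 0.40, with 33.5% of its exonic bases under the same-strand gene Gm42957, Itga2b at 0.27, Itgb7 at -0.14 and Itga3 at -0.37, with adjusted p-values of 0.397 to 0.597. Itga1, Itga11, Itgb6 and Itgb8 had 0 counts in all 6 libraries.

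**Figure D4:**
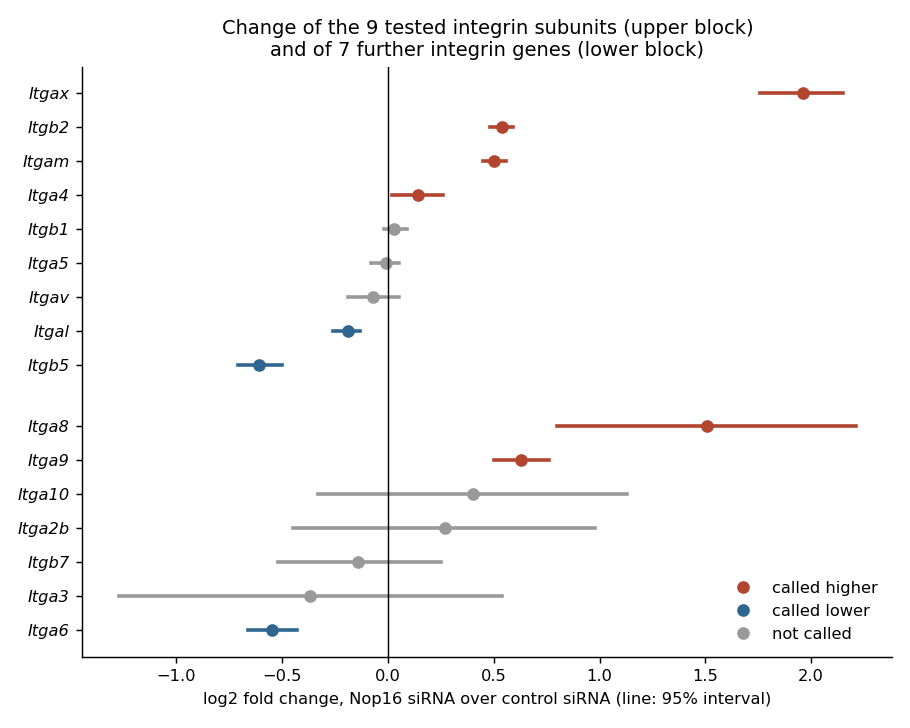
Log2 fold change (horizontal axis, Nop16 siRNA over control siRNA) with 95% interval of the 9 tested integrin subunits (upper block) and of 7 further integrin genes (lower block), coloured by call. Itgax lies at 1.96 and Itgb5 at -0.61, while the intervals of Itga5, Itgb1 and Itgav include 0.

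Of 42 genes for proteins that switch integrins on or tie them to actin, 36 were tested, and 19 were called higher and 8 lower by edgeR. Over all genes 23.0% were called higher and 22.4% lower, so the count of lower genes was near that background. Their median log2 fold change was 0.12. This list was chosen with earlier results of these data known, so both counts are a description. The share called among genes of like level was not computed. Cyth1, cytohesin-1, which binds the β2 tail, had 168 ± 5.23 CPM under Nop16 siRNA and 67 ± 3.01 CPM under control siRNA, a fold of 2.51 (adjusted p = 2.05e-35, edgeR). The Src family kinases Src and Fgr were called higher by 1.87-fold and 1.65-fold, and the adaptor Crk by 1.7-fold. The largest called falls were those of talin 2 (Tln2, log2 fold change -0.51), the small GTPase Rap1b (-0.40), paxillin (Pxn, -0.34) and zyxin (Zyx, -0.25). Tln2 was low, at 8.69 CPM under Nop16 siRNA and 12.5 CPM under control siRNA. Talin 1 (Tln1) had 752 CPM under Nop16 siRNA and 817 CPM under control siRNA, called lower at -0.12. Kindlin-3 (Fermt3), the leukocyte kindlin, had 291 ± 4.02 CPM under Nop16 siRNA and 291 ± 6.42 CPM under control siRNA (SD, n = 3 each).

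Ligands that the cells make themselves were called higher in 8 and lower in 3 of the 12 tested of 30 genes, beside 23.0% higher and 22.4% lower over all genes, so the count of lower genes was near the background. Their median log2 fold change was 0.36. As this list too was chosen with earlier results known, both counts are a description. No share called among genes of like level was computed. Spp1, osteopontin, a ligand of αv and α9 integrins, had 6698, 6694 and 6986 CPM under Nop16 siRNA, against 2632, 2482 and 2428 CPM under control siRNA. All Nop16 siRNA libraries were higher, at a fold of 2.7 (adjusted p = 2.53e-44, edgeR), and 18.8% of its exonic bases lie under the same-strand gene Gm42793. Icam1, a ligand of LFA-1 and Mac-1, had 103 ± 3.72 CPM under Nop16 siRNA and 46.8 ± 1.46 CPM under control siRNA (SD, n = 3 each), a fold of 2.21 (adjusted p = 8.23e-29, edgeR). Tgfb3, whose latent form αv integrins bind, was called higher at a log2 fold change of 0.62, and F11r, the junctional molecule JAM-A, at 0.54. Icam2, another LFA-1 ligand, had 3.41 ± 0.952 CPM under Nop16 siRNA and 6.04 ± 0.71 CPM under control siRNA, a log2 fold change of -0.81 (adjusted p = 0.000124, edgeR). Lamc1, a laminin chain, was called lower at -0.21. Adam15, a metalloprotease of the ADAM family, was called lower at -0.09 (adjusted p = 0.0122, edgeR). The Adam15 call was lost without Nop16 siRNA replicate 2 (0.104) or control siRNA replicate 1 (0.0814).

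Membrane proteins that sit beside integrins were called higher in 14 of the 14 tested of 16 genes, beside 23.0% of all genes. This list was chosen with earlier results of these data known, so the count is a description. The lowest group mean among the 14 was 66.9 CPM (Plaur, control siRNA), and the share called among genes of like level was not computed. The count called higher was 12 with scaling by library size only and 13 with upper quartile scaling. Their median log2 fold change was 0.29, and 4 of the 14 passed against a minimum fold of 1.2, beside 16.5% of all genes in either direction. Cd14, the lipopolysaccharide co-receptor that associates with Mac-1, had 1109 ± 13.5 CPM under Nop16 siRNA and 683 ± 14.8 CPM under control siRNA, a fold of 1.62 (adjusted p = 2.33e-30, edgeR). The tetraspanins Cd53 and Cd9 had log2 fold changes of 0.49 and 0.37, and the Fc receptor Fcgr3 had 0.39. The markers of osteoclasts, which carry αvβ3, summed to 475 to 505 CPM under Nop16 siRNA and 573 to 603 CPM under control siRNA. Of 5 tested, 1 was called higher and 3 lower, beside 23.0% and 22.4% of all genes. Mmp9 made up most of both sums, with 417 ± 15.7 CPM under Nop16 siRNA and 523 ± 13.9 CPM under control siRNA. Mmp9, Ocstamp and Nfatc1 were called lower, while Dcstamp was called higher at a fold of 1.38. Acp5 and Calcr had 0 counts. The megakaryocyte markers, whose cells carry αIIbβ3, summed to 484 to 522 CPM under Nop16 siRNA and 346 to 365 CPM under control siRNA, all from Pf4 and Ppbp, which were called higher, with Gp9 and Gp1ba at 0. The part of these marker genes in the integrin values was not tested.

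**Figure D5:**
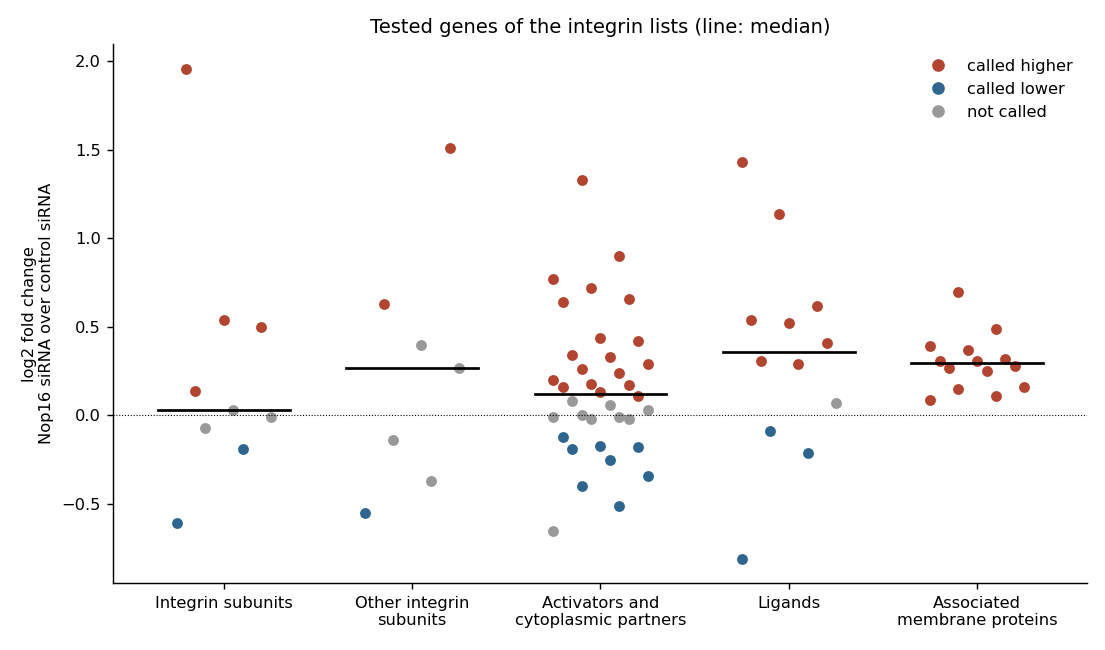
Log2 fold change (vertical axis, Nop16 siRNA over control siRNA) of each tested gene in the 5 integrin lists, with a line at each list's median and colours for the call. The medians are 0.03 for integrin subunits, 0.27 for other subunits, 0.12 for activators and partners, 0.36 for ligands and 0.29 for associated membrane proteins.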

How the data were processed

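Deposited values are raw fragment counts per gene that the authors made with featureCounts 2.0.1 on Ensembl 101 gene models of GRCm38, per the file headers: paired, strand setting 2, minimum overlap 10 bases, properly paired fragments only, with multi-mapped and multi-overlapping fragments counted. Totals are therefore not distinct fragments, and overlapping genes share counts. The submitters' processing notes name Trim Galore and HISAT2 2.2.1. Symbols were matched for 55141 of 55401 identifiers.

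The 2 groups were tested in edgeR 4.0.16 under R 4.3.3 by quasi-likelihood (TMM, robust dispersion, filterByExpr), with Benjamini-Hochberg adjustment over 14269 genes and a threshold of 0.05. Of these 3287 were called higher and 3195 lower. CPM (TMM-scaled) and TPM were computed from the counts; fold changes are Nop16 siRNA over control siRNA. Exon overlaps came from the count tables' gene models. Shares used exact permutation tests (scipy 1.17.1). The edgeR, DESeq2 1.42.0 and limma 3.58.1 fits were tested on simulated data. Replicates differed by more than sampling noise (chi-square per degree of freedom 2.46 to 3.01 within groups, 41.7 to 48 between).

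The members and the gene lists were chosen with earlier results of these data known. Named genes were all members and every tested other integrin gene. Of each further list, up to 4 called genes each way with the largest change were named. So were the 5 genes nearest to Itgax in profile with a mean of at least 5 CPM. Given outside that rule are Nop16, Fermt3, Tln1, Plaur, Cd63, Cd36, untested integrin genes, single genes of the cell type marker lists and neighbours on chromosome 7. Alternatives were other scalings, DESeq2, limma-voom, other filters, robust dispersion off, a replicate block, minimum folds of 1.2 and 1.5, thinning, and leaving out each library.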

Additional observations from a re-analysis of the deposited data

How the results depend on the processing

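Itgax kept its call and direction in all 18 alternative fits, at log2 fold changes of 1.84 to 2.03. Itgam (0.48 to 0.52), Itgb2 (0.51 to 0.56) and Itgb5 (-0.63 to -0.56) lost theirs only against a minimum fold of 1.5, and Itgal (-0.22 to -0.18) against minimum folds of 1.2 and 1.5. Itga5, Itgav and Itgb1 were called in none of them. Itga4 was called in 5 of 18.

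A filter of 5 CPM in 3 libraries left 1 other integrin gene called higher. Against a minimum fold of 1.2, 1108 genes were called higher and 1253 lower; 1 integrin subunit was called lower, 8 activators and partners higher and 2 lower, 1 ligand lower, and 4 associated proteins higher. Against 1.5, 270 genes were called higher and 275 lower; 1 integrin subunit, 1 other integrin gene, 3 activators, 2 ligands and 1 associated protein were higher, and 0 of each list were lower. Raising the tested fold lowers such counts by construction. Leaving out each library gave 2918 to 3039 genes higher and 2899 to 3010 lower, and DESeq2 2864 and 2817.

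Deviations of same-numbered replicates were hardly correlated (0.008, -0.013 and -0.022). These values cover all genes tested, noisy low-count genes included, so they cannot show whether the samples were paired. With the replicate block 3241 genes were called higher and 3188 lower, and 4 integrin subunits higher and 2 lower. The difference in share of Itgad turned sign without Nop16 siRNA replicate 1 (0.0013 points) and without control siRNA replicate 1 (0.00329 points), and that of Itgb3 without control siRNA replicate 2 (0.00419 points); both shares rest on few counts, and depth limits them.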

Other observations

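A few genes of the marker and membrane protein lists were listed at or near 0. Cd63, a tetraspanin of late endosomes and lysosomes, had 0 counts in all 3 Nop16 siRNA libraries and at most 1 count in any control siRNA library, and the scavenger receptor Cd36 averaged 0.0407 CPM under Nop16 siRNA and 0.0287 CPM under control siRNA, under the floor of 3 counts. Acp5, the tartrate-resistant acid phosphatase of osteoclasts, had 0 counts in all 6 libraries. The file headers name a filtered set of gene models and do not describe the filter. Whether a listed 0, those of Itga1, Itga11, Itgb6 and Itgb8 included, is absence of RNA or comes from how the tables were made was not tested.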
